A study of Homo sapiens with 9 samples.

Results

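A set of 196 antisense noncoding RNAs was followed in Hep3B cells, a human liver cancer line, and each was set beside the coding gene it is named after. A gene entered the set when its symbol ended in -AS plus a number and its raw count was at least 10 in each of the 9 RNA-seq libraries. The members were thus selected on their lowest count. No difference between groups was used directly, but the limit was not equally strict in all groups. It acted mostly through the smallest library, which belongs to the vehicle group at the higher oxygen level. The count table held 1484 genes with such a symbol among 60683 genes; 498 of them had no count in any library and 668 had counts enough to be tested. Of the 196, 193 had a coding gene of that name and 185 had one with counts enough to be tested, which makes 185 pairs with 183 distinct sense genes, since PAXIP1 and PTOV1 each have 2 antisense RNAs in the set.

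The cells were exposed for 24 h in 3 groups of 3 biological replicates. One group received vehicle (DMSO) at 20% O2, one received vehicle at 1% O2, and one received 32-134D, an inhibitor of the hypoxia-inducible factors (HIFs), at 1% O2. The labels do not say whether the replicates came from separate passages, so p-values measure the spread between these wells of 1 cell line. The first comparison asks what 1% O2 did to the antisense RNAs, the second what 32-134D did at 1% O2, and the third how far cells given 32-134D at 1% O2 stood from normoxic cells; each pair of comparisons shares a group of libraries.

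Antisense RNAs are transcribed from the strand opposite a coding gene. Some start beside the coding gene's own start and run away from it, so that one stretch of open promoter DNA serves both, while others start inside or beyond the gene and run across it. Some are known to change transcription or stability of the gene they face, others act elsewhere in the cell, and for many no function is known. HIFs are transcription factors that accumulate at low oxygen and bind DNA at a short core, ACGTG or GCGTG.

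Total counts ranged from 6013980 to 40549699 per library, and vehicle at 20% O2 replicate 2 was the smallest. In 175 of the 196 antisense RNAs the lowest count fell in that library, where 10 counts corresponded to 1.57 CPM, counts scaled to the library's TMM-adjusted size. Just inside the rule lay PDCD4-AS1, PPM1F-AS1 and CPNE8-AS1, each with a lowest count of 10, and just outside it lay ATP6V0E2-AS1, DBH-AS1 and ZNF582-AS1, each with a lowest count of 9. Because every library had to hold 10 counts, RNAs near 0 in any group are not in the set. In the smallest library the limit stood at a higher CPM than in the larger ones. It could thus leave out RNAs that were low at 20% O2 and rose at low oxygen, and keep RNAs that fell. How much of the balance of lower and higher calls came from this was not tested. Replicate 3 of 32-134D stood apart from its group: 12 of the 196 antisense RNAs were there more than 2-fold below the mean of the other 2 libraries, against 0 to 2 in each of the other 8 libraries, and values without it are given where they matter. ALB, HNF4A, APOB and SERPINA1, which mark liver cells, were read in every library, while of the marker genes of blood, vessel and stromal cells PTPRC, CD3E, CDH5 and DCN had at most 3 counts in any library. Others of those markers were read at low levels, with LST1 at up to 11 counts, PECAM1 up to 28 and COL1A2 up to 56, and LUM reached 12.9 CPM; their part in the results was not tested.

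The sources name no strand setting for the counting, so the separation of the strands was looked at in the counts themselves. Of the 15 antisense genes whose exons lie wholly inside the exons of an opposite gene with at least 100000 counts, the read density was 0.26% to 30.1% of that of the covering gene, with a median of 1.77%. With even coverage and the same exons in counting, counting both strands alike would give the 2 genes the same density. Dropping shared reads would then leave the covered gene at 0. The exons compared here are those of GENCODE 29, while the counts used Ensembl 100, and neither condition was tested. How much of these low counts came from the wrong strand was not measured. In the 196 antisense RNAs a median of 9% of exonic bases lay on exons of the opposite strand, 31 had none, and 11 had over 50%.

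Promoter windows are shown for pairs that the results turn on, because in GENCODE 29 their antisense and sense RNAs start close together and yet did not move together. Each runs from 250 bases before to 50 bases after a start in RefSeq (GRCh38.p14), 5′ to 3′ on the strand of its own gene, in lower case with the letters ACGTG or GCGTG, or the same read on the other strand (CACGT or CACGC), in capitals. The windows are RTCA at chr1:100265966-100266265 (plus strand), RTCA-AS1 at chr1:100266125-100266424 (minus), COX10 at chr17:14069254-14069553 (plus), SSTR5 at chr16:1078576-1078875 (plus), SSTR5-AS1 at chr16:1078682-1078981 (minus), GABPB1 at chr15:50355149-50355448 (minus) and GABPB1-AS1 at chr15:50353924-50354223 (plus), whose start GENCODE places elsewhere.
RTCA: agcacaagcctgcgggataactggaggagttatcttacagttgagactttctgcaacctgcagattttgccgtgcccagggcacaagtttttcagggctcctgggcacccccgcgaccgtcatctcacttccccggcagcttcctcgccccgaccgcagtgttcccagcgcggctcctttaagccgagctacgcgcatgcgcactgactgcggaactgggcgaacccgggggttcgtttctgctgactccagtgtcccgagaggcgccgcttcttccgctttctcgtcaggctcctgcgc
RTCA-AS1: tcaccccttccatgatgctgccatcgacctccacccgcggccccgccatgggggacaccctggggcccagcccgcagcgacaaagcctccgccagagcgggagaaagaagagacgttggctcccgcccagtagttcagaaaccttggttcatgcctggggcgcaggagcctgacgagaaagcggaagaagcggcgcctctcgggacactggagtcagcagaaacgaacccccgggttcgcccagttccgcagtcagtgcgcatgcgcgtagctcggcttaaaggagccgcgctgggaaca
COX10: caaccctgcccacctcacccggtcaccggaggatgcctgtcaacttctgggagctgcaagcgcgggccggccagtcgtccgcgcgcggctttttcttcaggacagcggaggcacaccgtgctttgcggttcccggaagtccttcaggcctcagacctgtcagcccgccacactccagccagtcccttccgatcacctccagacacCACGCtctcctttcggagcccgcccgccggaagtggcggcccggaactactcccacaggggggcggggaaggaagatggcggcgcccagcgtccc
SSTR5: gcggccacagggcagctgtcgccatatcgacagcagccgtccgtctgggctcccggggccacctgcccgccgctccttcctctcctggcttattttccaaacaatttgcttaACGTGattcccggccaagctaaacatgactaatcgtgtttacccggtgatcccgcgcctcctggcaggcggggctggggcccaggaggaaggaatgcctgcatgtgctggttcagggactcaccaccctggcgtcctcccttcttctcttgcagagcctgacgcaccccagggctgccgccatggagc
SSTR5-AS1: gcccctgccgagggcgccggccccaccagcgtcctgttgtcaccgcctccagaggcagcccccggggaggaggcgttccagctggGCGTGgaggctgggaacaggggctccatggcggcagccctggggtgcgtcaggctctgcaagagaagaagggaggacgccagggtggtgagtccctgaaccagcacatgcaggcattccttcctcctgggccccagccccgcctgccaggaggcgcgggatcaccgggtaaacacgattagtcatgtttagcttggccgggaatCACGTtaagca
GABPB1: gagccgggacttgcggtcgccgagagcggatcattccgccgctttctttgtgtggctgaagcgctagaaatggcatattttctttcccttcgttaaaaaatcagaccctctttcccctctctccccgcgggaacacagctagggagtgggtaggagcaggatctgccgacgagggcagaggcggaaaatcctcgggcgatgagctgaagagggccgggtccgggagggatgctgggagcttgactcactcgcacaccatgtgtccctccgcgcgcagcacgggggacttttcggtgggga
GABPB1-AS1: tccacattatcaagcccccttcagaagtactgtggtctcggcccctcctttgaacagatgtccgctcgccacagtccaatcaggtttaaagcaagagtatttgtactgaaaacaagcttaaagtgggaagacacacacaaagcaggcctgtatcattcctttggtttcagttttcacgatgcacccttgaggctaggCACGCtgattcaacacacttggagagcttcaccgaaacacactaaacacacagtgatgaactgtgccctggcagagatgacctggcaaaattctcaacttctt

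The windows of RTCA and RTCA-AS1 share 141 bases, and those of SSTR5 and SSTR5-AS1 share 194. Those of GABPB1 and GABPB1-AS1, at their RefSeq starts, share 0. Neither window of the RTCA pair held the searched letters, SSTR5 held 1 match and SSTR5-AS1 held 2. Of these 2, 1 lies in the shared stretch and is the SSTR5 match read on the other strand. COX10 and GABPB1-AS1 held 1 match each. Among all 35116 windows 48.4% held a match, so a match is common; none of these windows held the 6 letters CACGTG, which contain ACGTG and are also bound by other factors. By gene, 113 of the 152 antisense RNAs with a window had a match in at least 1 of their windows (74.3%), against 52.4% of all genes with a window and 68.5% of the 162 sense genes with one. The share was 76.2% of 21 antisense RNAs that were higher at 1% O2, 71% of 62 that were lower and 76.8% of 69 that were not called. A match is a description of the letters and not a binding site.

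At 1% O2 more antisense RNAs fell than rose. In vehicle at 1% against 20% O2, 84 of the 196 were lower and 26 were higher, called at an edgeR quasi-likelihood false discovery rate (FDR) below 0.05 and a fold change above 1.5. Among all 22672 genes tested 20.3% were lower and 19.5% higher, and among the 12912 genes that also had 10 counts in each library 22.5% were lower and 26.4% higher; the antisense RNAs came to 42.9% and 13.3%. Their median log2 fold change was -0.34, against 0.10 for those 12912 genes and 0.05 for the 183 sense genes, of which 41 were higher and 38 lower. The lower-expressed 98 and the higher-expressed 98 antisense RNAs had 43 and 41 lower calls. Of all 668 antisense genes tested, without the limit in each library, 22% were lower and 10.8% higher. Of other long noncoding RNAs by annotation 241 of 526 were lower (45.8%) and 53 higher, and of divergent transcripts with symbols ending in -DT 18 of 36 were lower and 1 higher; protein-coding genes had 20.7% lower and 27.5% higher.

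With 32-134D at 1% O2 the balance was the other way. Against vehicle at 1% O2, 60 of the 196 were higher and 23 lower, or 30.6% and 11.7%. Of all genes tested 16.2% were higher and 13.7% lower, and of the 12912 genes 18% were higher and 18.1% lower. Of all 668 antisense genes tested, without the limit in each library, 16.3% were higher and 9.58% lower. The median log2 fold change was 0.17 for the antisense RNAs, -0.07 for the sense genes and -0.10 for the 12912 genes. Of the sense genes 30 were higher and 33 lower, and of the other long noncoding RNAs 193 of 526 were higher. Without 32-134D replicate 3 the counts were 60 higher and 25 lower. Scaled by total library size, the median of all genes itself moved to -0.21 in the first comparison and 0.17 in the second; the antisense RNAs then had 18 higher and 93 lower, and 77 higher and 15 lower, with medians of -0.55 and 0.35.

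**Figure D1:**
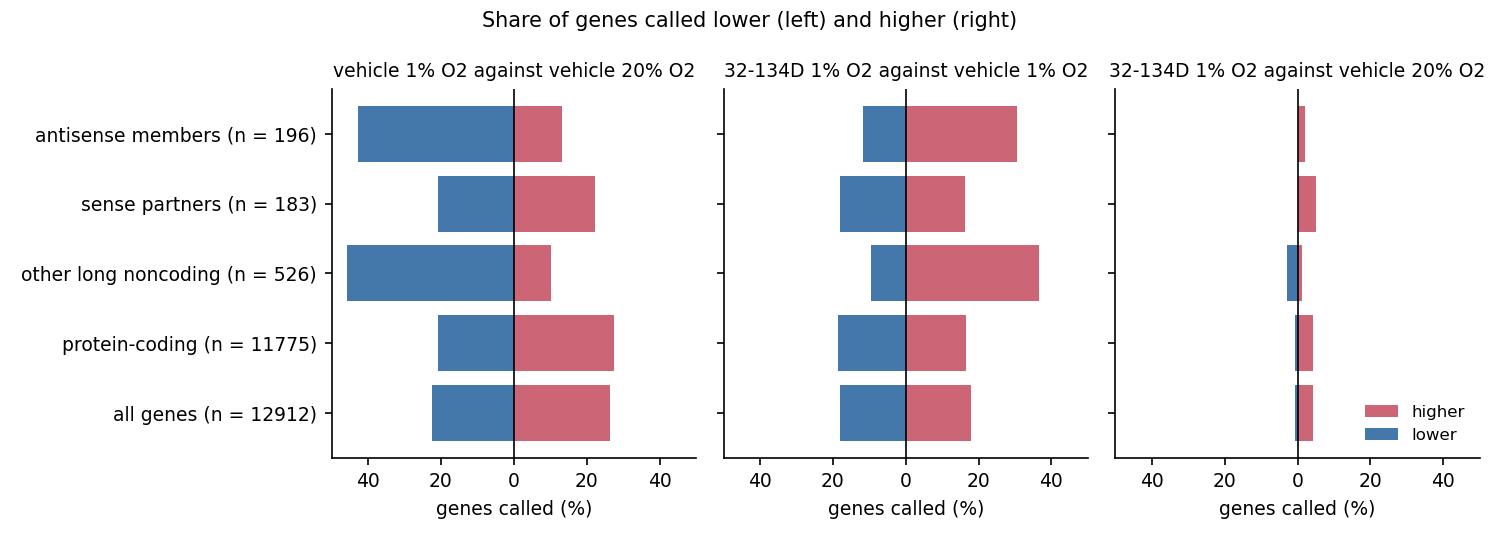
Horizontal bars give the percentage of genes called lower (to the left) and higher (to the right) in the 3 comparisons, for the 196 antisense RNAs, their 183 sense genes, 526 other long noncoding RNAs, 11775 protein-coding genes and all 12912 genes with at least 10 counts in each library. At 1% O2 the antisense bar reaches 42.9% on the lower side and 13.3% on the higher side, and with 32-134D 11.7% and 30.6%.

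The summed level of the 196 antisense RNAs was lowest in vehicle at 1% O2. The sum was 1597, 1601 and 1675 CPM in vehicle at 20% O2, 1493, 1462 and 1442 CPM in vehicle at 1% O2, and 1552, 1545 and 1519 CPM with 32-134D. The 3 groups did not overlap. FGD5-AS1, a cytoplasmic RNA studied in several cancers, was the most abundant and ranged from 150 to 174 CPM over the 9 libraries; it was not called in any comparison, with a log2 fold change of 0.08 ± 0.07 (SE, edgeR FDR = 0.343) at 1% O2. OIP5-AS1, known to bind microRNAs and RNA-binding proteins, followed at 98.0, 92.6 and 94.7 CPM in vehicle at 20% O2, 69.5, 62.8 and 61.5 at 1% O2 and 89.1, 87.5 and 83.7 with 32-134D. Its groups at 20% and 1% O2 did not overlap, and its log2 fold change of -0.56 ± 0.07 (SE, edgeR FDR = 1.05e-05) was just under the fold of 1.5. Per kilobase of exon the antisense RNA stood at a median of 22.6% of its sense gene, 46 of the 185 pairs had more antisense than sense RNA, and 62 had under 10%.

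The antisense RNAs with the highest changes at 1% O2 were SSTR5-AS1, EPB41L4A-AS1, KRTAP5-AS1, SMAD5-AS1 and SVIL-AS1. SSTR5-AS1 (ENSG00000261713; chr16:1064093-1078731, minus strand in GENCODE 29, GRCh38) starts 50 bases from SSTR5, which encodes a somatostatin receptor. It was at 1.36, 2.51 and 1.25 CPM in vehicle at 20% O2, 6.31, 7.92 and 6.36 CPM in vehicle at 1% O2, and 1.81, 2.39 and 1.65 CPM with 32-134D. All 3 libraries of vehicle at 1% O2 stood above the other 6, while the remaining groups overlapped each other. The log2 fold change was 2.18 ± 0.24 (SE, edgeR FDR = 2.23e-06) at 1% O2 and -1.80 ± 0.21 (edgeR FDR = 6.28e-06) with 32-134D. SSTR5 itself ranged from 1.36 to 2.67 CPM in vehicle at 20% O2 and from 1.40 to 1.90 CPM in vehicle at 1% O2, so its groups overlapped, with a log2 fold change of -0.07 ± 0.27 (edgeR FDR = 0.853).

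EPB41L4A-AS1 (ENSG00000224032; chr5:112160526-112164276, plus strand), which hosts a small nucleolar RNA in an intron, was at 5.81, 5.65 and 4.99 CPM in vehicle at 20% O2, 22, 25.6 and 25 CPM in vehicle at 1% O2, and 11.5, 12.6 and 13.7 CPM with 32-134D. The 3 groups were separate, with 32-134D between the vehicle groups. Its log2 fold change was 2.16 ± 0.13 (SE, edgeR FDR = 2.57e-09) at 1% O2, -0.94 ± 0.11 (edgeR FDR = 5.34e-06) with the compound, and 1.22 ± 0.13 (edgeR FDR = 2.49e-05) for 32-134D at 1% O2 against vehicle at 20% O2. The gene it is named after, EPB41L4A, a membrane-cytoskeleton linker, was at most 0.32 CPM in every library and not called. Of the exonic bases of EPB41L4A-AS1, 49.6% lie on EPB41L4A exons. KRTAP5-AS1 (ENSG00000233930; chr11:1571353-1599184, plus strand), which lies among keratin-associated protein genes and has no single partner, rose from 4.73, 8.16 and 8.18 CPM to 28.1, 31.6 and 28.0 CPM and stood at 11.9, 14.8 and 12.3 CPM with 32-134D. Again the 3 groups did not overlap, and the log2 fold changes were 2.05 ± 0.17 (edgeR FDR = 8.42e-08), -1.17 ± 0.15 (edgeR FDR = 1.5e-05) and 0.89 ± 0.17 (edgeR FDR = 0.00373) in the 3 comparisons.

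SMAD5-AS1 (ENSG00000164621; chr5:136129507-136134890, minus strand) faces SMAD5, a transducer of bone morphogenetic protein signals. It was at 1.86, 1.57 and 1.70 CPM in vehicle at 20% O2, 4.56, 6.93 and 6.39 CPM in vehicle at 1% O2, and 1.70, 1.41 and 0.594 CPM with 32-134D, where replicate 3 was lowest. Its log2 fold change was 1.77 ± 0.29 (SE, edgeR FDR = 8.86e-05) and then -2.20 ± 0.27 (edgeR FDR = 9.53e-06), with 61.6% of its exonic bases on exons of the opposite strand. SMAD5 lay between 185 and 214 CPM in all 6 vehicle libraries, with a log2 fold change of -0.03 ± 0.11 (edgeR FDR = 0.837). PPP1R14B-AS1, beside the gene of a protein phosphatase inhibitor, and MAP3K4-AS1, beside a stress kinase gene, likewise rose at 1% O2, by log2 fold changes of 1.37 and 0.88, and fell with 32-134D, by 1.57 and 1.11 on the log2 scale. Neither sense gene was called, although PPP1R14B-AS1 also had 61.1% of its exonic bases on opposite exons.

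Among the RNAs lowest at 1% O2 were ADORA2A-AS1, DLGAP1-AS2, TRHDE-AS1 and PPM1F-AS1. DLGAP1-AS2 fell from 6.67, 6.59 and 5.99 CPM to 1.51, 1.18 and 1.14 CPM and was at 4.31, 3.74 and 6.22 CPM with 32-134D, with log2 fold changes of -2.30 ± 0.22 (edgeR FDR = 4.83e-07) and 1.86 ± 0.21 (edgeR FDR = 5.4e-06). Its sense gene, a scaffold protein of synapses, had fewer than 10 counts. ADORA2A-AS1, across the gene of an adenosine receptor, was at 1.65, 2.35 and 2.37 CPM, then 0.371, 0.471 and 0.449 CPM, then 1.50, 1.78 and 0.732 CPM. PPM1F-AS1 was at 1.94, 2.04 and 1.25 CPM, then 0.318, 0.471 and 0.415 CPM, then 1.02, 0.808 and 1.05 CPM, while PPM1F, a phosphatase gene, stayed between 40.3 and 45.5 CPM in all 9 libraries. In both RNAs the vehicle groups did not overlap, with log2 fold changes of -2.31 ± 0.35 (edgeR FDR = 4.24e-05) and -2.05 ± 0.32 (edgeR FDR = 6.84e-05).

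**Figure D2:**
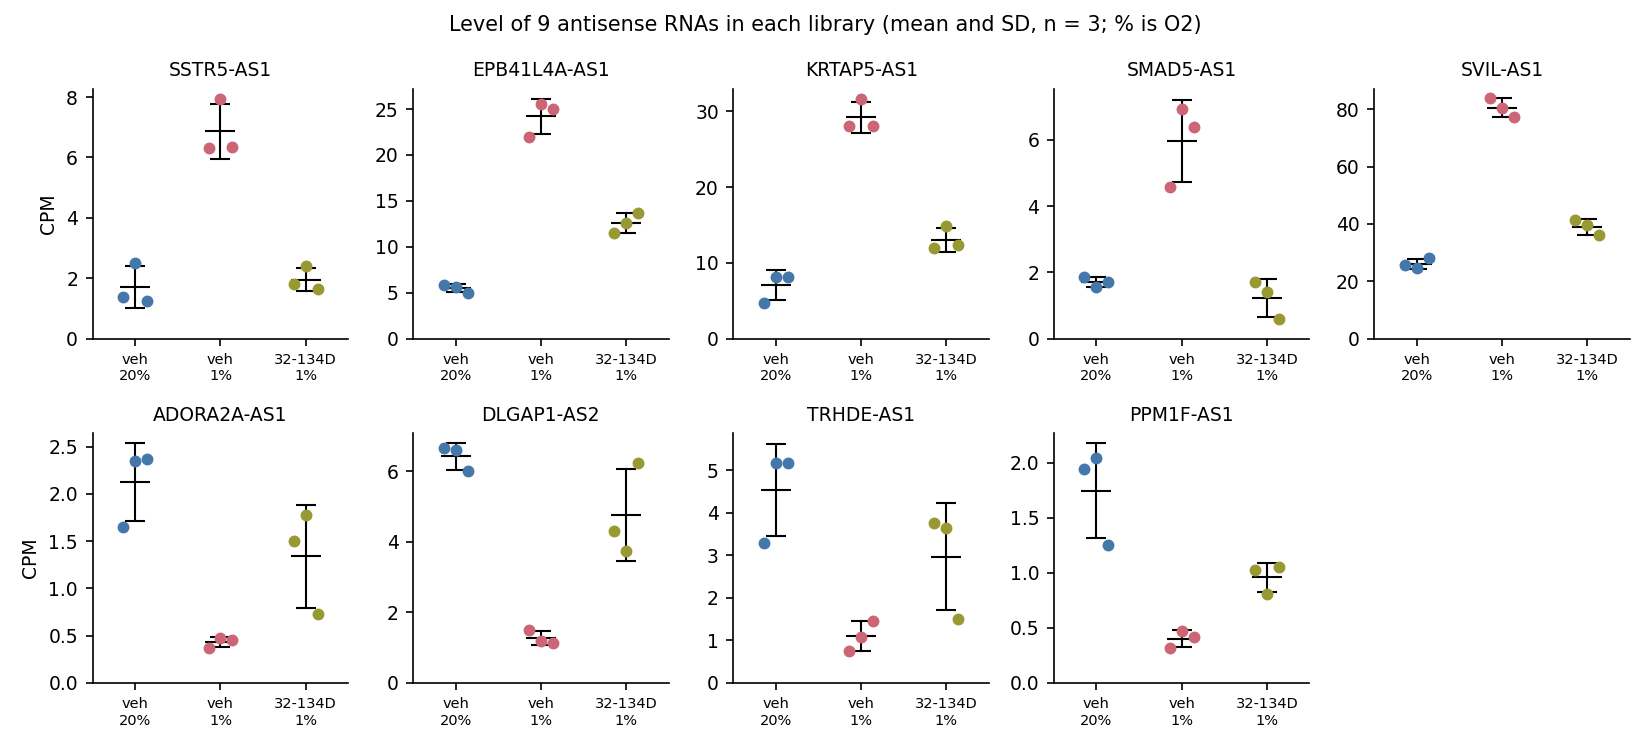
Points give the level (CPM, axes from 0) of 9 antisense RNAs in each of the 9 libraries by group, with the mean and SD (n = 3) as lines; the upper row holds the 5 with the highest change at 1% O2 and the lower row 4 of those with the lowest. In all 9 the vehicle groups do not overlap, and TRHDE-AS1 in 32-134D replicate 3 (1.51 CPM) lies below the other 2 libraries of its group (3.77 and 3.64 CPM).

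Among the RNAs highest with 32-134D against vehicle at 1% O2, TNRC6C-AS1 and VPS9D1-AS1 followed DLGAP1-AS2, and both had been called lower at 1% O2. TNRC6C-AS1, which overlaps an Argonaute partner of gene silencing, was at 26.6, 28.3 and 27.2 CPM, then 6.78, 6.84 and 6.22 CPM, then 19.6, 18.5 and 27.3 CPM, with a log2 fold change of 1.72 ± 0.14 (SE, edgeR FDR = 1.71e-07) with the compound. VPS9D1-AS1 was at 5.59, 7.54 and 7.54 CPM, then 1.75, 2.22 and 1.66 CPM, then 5.02, 5.18 and 8.28 CPM, a log2 fold change of 1.72 ± 0.22 (edgeR FDR = 1.57e-05). Neither TNRC6C nor VPS9D1 was called in any comparison. PARD6G-AS1, near a cell polarity gene, was also among the highest, with a log2 fold change of 1.69 ± 0.25 (edgeR FDR = 4.58e-05).

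Among 19 of the 196 that have published work in hypoxia, liver or cancer, a list drawn up with earlier results of these data known, 10 were lower and 4 higher at 1% O2 (median log2 fold change -0.77), and 9 were higher and 2 lower with 32-134D (median 0.42). Of all 196, 42.9% were lower and 13.3% higher at 1% O2, and 30.6% were higher and 11.7% lower with 32-134D. MCM3AP-AS1 was at 5.45, 8.48 and 9.43 CPM, then 3.21, 2.92 and 3.11 CPM, then 8.59, 8.21 and 7.54 CPM. CDKN2B-AS1, also called ANRIL and transcribed through the INK4 tumour suppressor locus, was at 5.09, 7.85 and 6.23 CPM, then 2.81, 2.26 and 2.45 CPM, then 5.62, 5.79 and 6.95 CPM. Both fell at 1% O2, with log2 fold changes of -1.34 ± 0.19 (edgeR FDR = 2.03e-05) and -1.30 ± 0.18 (edgeR FDR = 2.57e-05), and both rose with 32-134D, by 1.39 ± 0.18 (edgeR FDR = 1.44e-05) and 1.27 ± 0.18 (edgeR FDR = 3.06e-05). TMPO-AS1, DLX6-AS1, GATA6-AS1, TP73-AS1, TTN-AS1 and VPS9D1-AS1 were likewise lower and then higher, and RAMP2-AS1 was called lower at 1% O2 and not called with 32-134D; that difference was not tested. TMPO-AS1 was at 13.7 and 14.1 CPM in 32-134D replicates 1 and 2 and at 7.13 CPM in replicate 3. SBF2-AS1 and MAPKAPK5-AS1 went the other way: SBF2-AS1 was at 8.46, 8.01 and 7.05 CPM, then 14.4, 14.1 and 14.6 CPM, then 7.97, 8.15 and 8.18 CPM, with log2 fold changes of 0.89 ± 0.12 (edgeR FDR = 1.07e-05) and -0.83 ± 0.11 (edgeR FDR = 1.83e-05). EGFR-AS1 and ZEB1-AS1 were the other 2 called higher at 1% O2, and the call of ZEB1-AS1 was lost without any 1 of 3 libraries, vehicle at 20% O2 replicate 3 or vehicle at 1% O2 replicate 1 or 3.

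Antisense and sense calls were then counted by pair. Of the 185 pairs at 1% O2, 49 had a lower antisense RNA and an uncalled sense gene and 18 a higher antisense RNA and an uncalled sense gene; of all 183 sense genes 104 were uncalled. In 40 pairs the sense gene alone was called, in 26 both went the same way (22 lower, 4 higher), in 13 they went opposite ways, and in 39 neither was called. Across the 185 pairs the log2 fold changes of antisense and sense had a Spearman rho of 0.17 at 1% O2 and 0.14 with 32-134D; pairs share libraries and are not independent replicates. With 32-134D, 56 pairs had only the antisense RNA called, 40 only the sense gene, 19 both the same way and 4 opposite ways. The same-way and opposite counts were 17 and 6 without 32-134D replicate 3. The sense gene was higher in 41 and lower in 38 of the 185 pairs at 1% O2, and in 30 and 33 with 32-134D. How many pairs would coincide from the separate calls alone was not computed in either comparison. The log2 ratio of antisense to sense in vehicle at 1% O2 did not overlap that at 20% O2 in 129 pairs, with the antisense RNA relatively lower in 90 and higher in 39; of the 12912 genes 79.3% did not overlap on their own CPM in that comparison, and of the 196 antisense RNAs 66.8%. With 32-134D against vehicle at 1% O2 the ratio did not overlap in 123 pairs, with the antisense RNA relatively higher in 79; on CPM 73.6% of the 12912 genes and 63.3% of the antisense RNAs did not overlap. For 32-134D at 1% O2 against vehicle at 20% O2 the ratio did not overlap in 45 pairs, with the antisense RNA relatively lower in 40 and higher in 5, and on CPM the shares were 41.1% and 25.5%. With 3 libraries against 3 an exact two-sided permutation test of one ratio cannot go below p = 0.10.

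**Figure D3:**
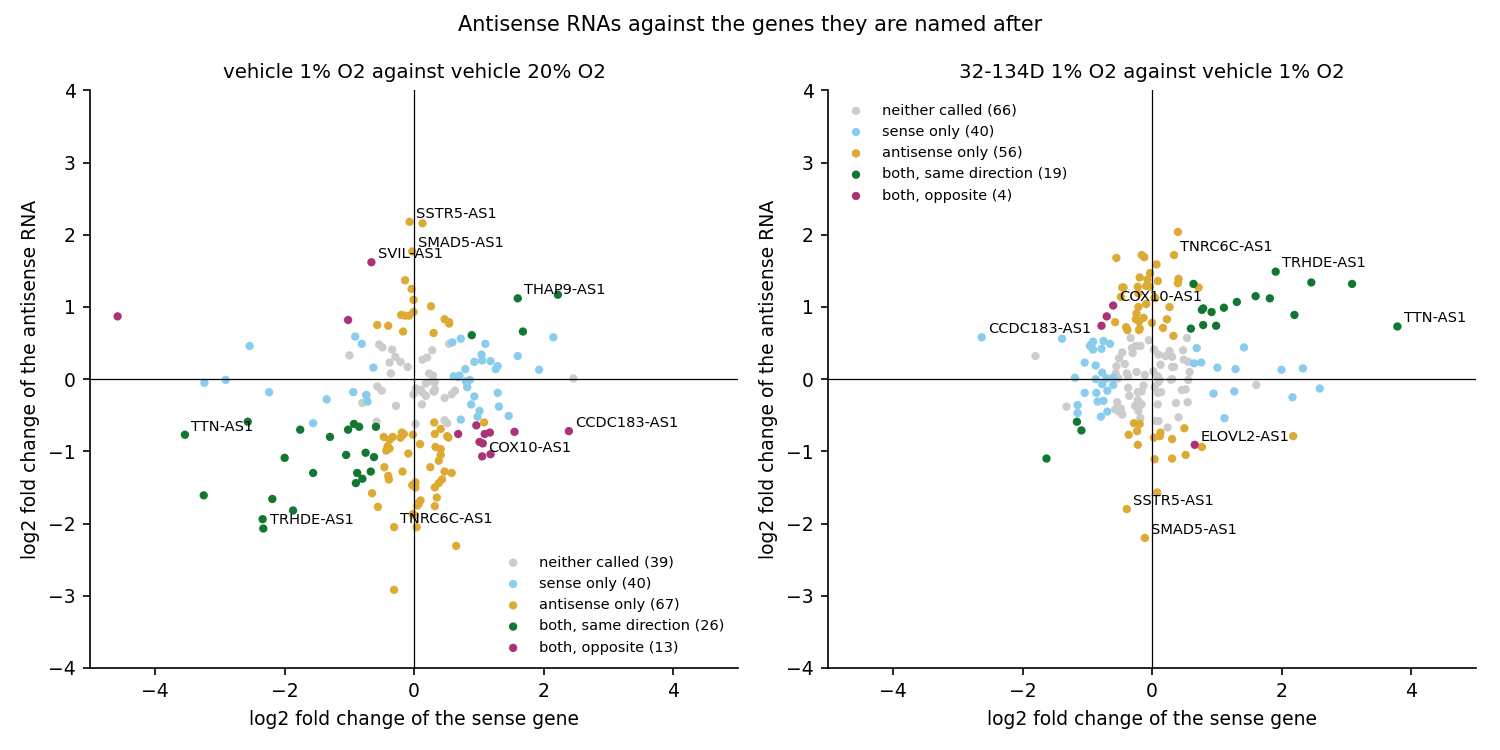
Each point is 1 of the 185 pairs, with the log2 fold change of the sense gene on the x axis and that of the antisense RNA on the y axis, for vehicle at 1% against 20% O2 (left) and 32-134D against vehicle at 1% O2 (right), coloured by which of the 2 was called. Points labelled SSTR5-AS1 and SMAD5-AS1 lie far from 0 on the y axis and near 0 on the x axis, and the 13 and 4 opposite pairs lie in the upper left and lower right; the leftmost point of the left panel is SAPCD1, whose sense counts were at or near 0.

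Antisense and sense were called in the same direction in 26 of the 185 pairs at 1% O2. Whether this exceeds what the separate calls alone would give was not tested. TRHDE-AS1 and TRHDE, which encodes an enzyme that cleaves thyrotropin-releasing hormone, fell alike: the antisense RNA went from 3.30, 5.18 and 5.17 CPM to 0.742, 1.08 and 1.45 CPM and the sense gene from 4.52, 4.87 and 4.07 CPM to 0.875, 1.13 and 0.657 CPM. With 32-134D they were at 3.77, 3.64 and 1.51 CPM and at 3.20, 3.74 and 2.93 CPM. Their log2 fold changes at 1% O2 were -2.07 ± 0.34 (edgeR FDR = 0.000113) and -2.33 ± 0.22 (edgeR FDR = 4.84e-07). TTN-AS1, opposite the titin gene, fell by 0.77 on the log2 scale, and 55.1% of its exonic bases lie on TTN exons. TTN fell by 3.54 ± 0.44 (SE), from 3.37, 2.20 and 3.77 CPM to 0.133, 0.424 and 0.346 CPM. The size of that change is uncertain at levels this low. THAP9-AS1 starts 276 bases from THAP9, a gene derived from a transposase, and both rose, from 8.60, 7.69 and 8.18 to 18.6, 18.4 and 16.4 CPM for the antisense RNA and from 4.95, 3.45 and 4.20 to 11.5, 14.4 and 13.2 CPM for THAP9.

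Further pairs of transcription factor genes, chosen after their values were seen, went the same way. PROX1-AS1 fell from 4.73, 4.08 and 4.87 to 1.46, 2.03 and 1.14 CPM and was at 3.40, 4.61 and 3.34 CPM with 32-134D. PROX1, which specifies hepatocytes and lymphatic cells, fell from 260, 319 and 353 to 31.4, 34.5 and 32.4 CPM and was at 277, 287 and 269 CPM with 32-134D. The log2 fold changes at 1% O2 were -1.61 ± 0.23 (edgeR FDR = 2.29e-05) and -3.25 ± 0.10 (edgeR FDR = 8.61e-12). ELF3-AS1 rose from 12.6, 15.5 and 13.3 to 28.6, 32.3 and 31.6 CPM beside ELF3, an epithelial factor, which rose from 74.9, 59.2 and 64.6 to 285, 325 and 321 CPM, and with 32-134D they were at 16.6, 14.9 and 11.4 CPM and at 106, 108 and 86.6 CPM.

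All 4 pairs that went opposite ways with 32-134D were head-to-head, with starts within 1000 bases of each other: RTCA, COX10, GABPB1 and ELOVL2. Of all 185 pairs 78 were head-to-head, and at 1% O2 the opposite pairs were 4 head-to-head and 9 overlapping. The count of 4 with 32-134D ran from 3 to 7 when 1 library was left out. RTCA encodes the RNA 3′-terminal phosphate cyclase, and RTCA-AS1 (ENSG00000224616; chr1:100251528-100266179, minus strand) starts 28 bases from it. RTCA-AS1 was at 2.22, 2.35 and 2.13 CPM in vehicle at 20% O2, 0.954, 0.943 and 1.31 CPM at 1% O2, and 2.30, 1.48 and 2.10 CPM with 32-134D. RTCA was at 35.7, 29.8 and 32.0 CPM, then 73.4, 73.2 and 75.3 CPM, then 44.8, 42.0 and 50.3 CPM. In both genes vehicle at 1% O2 did not overlap either other group. At 1% O2 the log2 fold changes were -1.04 ± 0.25 (SE, edgeR FDR = 0.00262) for RTCA-AS1 and 1.18 ± 0.09 (edgeR FDR = 3.98e-08) for RTCA, and with 32-134D 0.87 ± 0.24 (edgeR FDR = 0.00691) and -0.70 ± 0.09 (edgeR FDR = 9.67e-06). The exons of RTCA-AS1 lie 68% on opposite exons, none of them of RTCA.

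COX10 makes heme O, an intermediate in making the heme of cytochrome c oxidase. COX10-AS1 (ENSG00000236088, chr17:13756478-14069495, minus strand) starts 1 base from COX10, with no exonic base on an opposite exon. COX10-AS1 was at 9.75, 10.5 and 12.9 CPM, then 5.49, 5.52 and 5.05 CPM, then 9.39, 11.5 and 11.8 CPM, and COX10 at 21.1, 23.1 and 22.9 CPM, then 43.3, 47.5 and 48.1 CPM, then 29.6, 31.4 and 30.8 CPM. Vehicle at 1% O2 was lowest in the one and highest in the other. At 1% O2 the log2 fold changes were -1.07 ± 0.15 (edgeR FDR = 1.71e-05) and 1.05 ± 0.08 (edgeR FDR = 7.36e-08), and with 32-134D 1.02 ± 0.14 (edgeR FDR = 2.73e-05) and -0.60 ± 0.08 (edgeR FDR = 2.26e-05); the last lay at the fold of 1.5 and was not called with DESeq2, with total or RLE scaling, with 10 counts required in every library, in a fit of the 2 groups alone, in thinned counts, or without any 1 of 4 libraries (vehicle at 20% O2 replicate 1, vehicle at 1% O2 replicates 2 and 3, 32-134D replicate 1).

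GABPB1 encodes a subunit of a transcription factor of mitochondrial genes. GABPB1-AS1 (ENSG00000244879; chr15:50354959-50372202, plus strand) was at 39.7, 33.1 and 40.3 CPM, then 23.2, 16.7 and 21.5 CPM, then 32.0, 32.6 and 38.6 CPM, and GABPB1 at 29, 22.9 and 22.5 CPM, then 49.5, 52.7 and 53.3 CPM, then 30.0, 30.1 and 30.3 CPM. The log2 fold changes were -0.89 ± 0.12 (edgeR FDR = 2.36e-05) and 1.06 ± 0.10 (edgeR FDR = 3.15e-07) at 1% O2, and 0.74 ± 0.12 (edgeR FDR = 0.00015) and -0.78 ± 0.09 (edgeR FDR = 7.71e-06) with 32-134D. ELOVL2, an elongase of long polyunsaturated fatty acids, went from 208, 207 and 221 to 104, 118 and 116 and then 195, 193 and 144 CPM, while ELOVL2-AS1 was at 1.29, 1.73 and 1.37, then 1.67, 1.98 and 2.77, then 1.30, 1.18 and 0.869 CPM. Its call with 32-134D, a log2 fold change of -0.91 ± 0.25 (edgeR FDR = 0.00734), was lost without vehicle at 1% O2 replicate 3.

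SVIL-AS1 went opposite to a sense gene it overlaps far from the start. It was at 25.6, 24.5 and 28.0 CPM, then 84.1, 80.5 and 77.2 CPM, then 41.2, 39.7 and 36.0 CPM, and SVIL, which encodes the actin-binding supervillin, at 32.1, 38.2 and 40.9 CPM, then 26.3, 21.3 and 23.0 CPM, then 36.2, 34.2 and 30.7 CPM. The log2 fold changes at 1% O2 were 1.62 ± 0.09 (edgeR FDR = 1.12e-09) and -0.66 ± 0.11 (edgeR FDR = 0.000144), the latter lost as a call without vehicle at 20% O2 replicate 3. ZBTB11 rose from 43.2, 46.6 and 49.6 to 136, 133 and 140 CPM while ZBTB11-AS1 was at 4.66, 1.88 and 4.23 and then 2.60, 2.36 and 1.97 CPM, so its groups overlapped, and its call was lost without any 1 of 3 libraries. CCDC183 rose from 1.29, 1.57 and 1.28 to 6.84, 5.66 and 8.47 CPM while CCDC183-AS1 went from 3.94, 6.44 and 5.14 to 3.45, 2.40 and 3.21 CPM, a log2 fold change of -0.72 ± 0.23 (edgeR FDR = 0.0142) whose call was lost without any 1 of 3 libraries. SAPCD1-AS1 rose by a log2 fold change of 0.87 ± 0.18 (edgeR FDR = 0.000689), with 89.2% of its exonic bases on opposite exons, and SAPCD1 was at 0, 0.0471 and 0 CPM in vehicle at 1% O2, too low for a fold change.

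**Figure D4:**
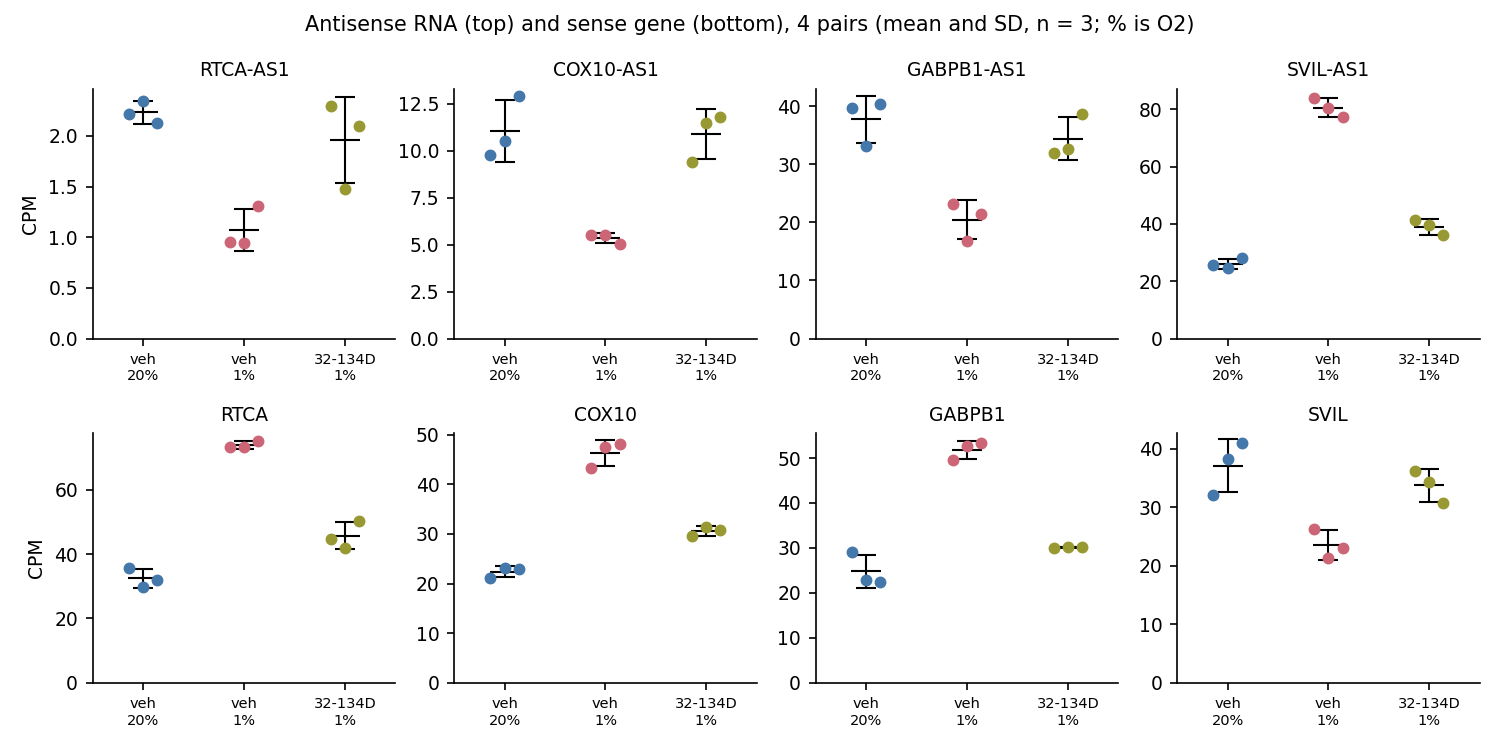
Points give the level (CPM, axes from 0) of 4 antisense RNAs in the upper row and of their sense genes in the lower row in each of the 9 libraries, with the mean and SD (n = 3) as lines. In vehicle at 1% O2 RTCA-AS1, COX10-AS1 and GABPB1-AS1 are lowest while RTCA, COX10 and GABPB1 are highest, and SVIL-AS1 and SVIL are the reverse.

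The pairs were also divided by position. At 1% O2, of 78 head-to-head pairs 41% had a lower antisense RNA and of 105 pairs that overlapped with starts further apart 45.7%, with 12.8% and 14.3% higher; the 2 remaining pairs lay apart without overlap. Both members were called in the same direction in 10 head-to-head and 16 overlapping pairs, and in opposite directions in 4 and 9. With 32-134D the antisense RNA was higher in 32.1% and 29.5% of the pairs, and opposite in 4 and 0. The difference between the classes was not tested.

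With 32-134D at 1% O2 few antisense RNAs differed by call from vehicle at 20% O2. In this comparison 4 of the 196 were higher (2.04%), against 3% of all genes tested and 4.12% of the 12912 genes, and 0 were lower, against 0.516% and 0.736%. By the quasi-likelihood test of edgeR 33 of the 196 were lower at an unadjusted p under 0.05, and DESeq2 called 2 lower. The share of all genes lower at that unadjusted p was not counted. The median log2 fold change was -0.15, against 0.01 for the 12912 genes. The 4 were EPB41L4A-AS1 and KRTAP5-AS1, given above, THAP9-AS1 and EGFR-AS1. THAP9-AS1 was at 8.60, 7.69 and 8.18 CPM in vehicle at 20% O2 and 13.1, 10.7 and 15 CPM with 32-134D, a log2 fold change of 0.65 ± 0.14 (edgeR FDR = 0.00698) that was 0.53 and no longer called without 32-134D replicate 3. EGFR-AS1, within the gene of the epidermal growth factor receptor, was at 10.9, 9.26 and 11.9 CPM and then 14.4, 13.2 and 22.6 CPM, a log2 fold change of 0.61 ± 0.18 (edgeR FDR = 0.041), which was 0.32 without that replicate and lost its call in 6 of the 9 fits that left out 1 library. Of the 183 sense genes 9 were higher and 0 lower, with 19 lower at an unadjusted p under 0.05 by edgeR and DESeq2 calling 0.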

How the data were processed

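Hep3B RNA-seq was processed by the authors, who trimmed reads with Bbduk, aligned them with STAR to GRCh38 (Ensembl 100) and counted reads per gene with featureCounts; FastQC, MultiQC and DESeq2 are also named in the submitters' processing notes. Versions and the strand setting are not given in the sources used here. The deposited counts were used as raw whole-number counts, and all 9 sample columns were mapped by their titles.

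Genes with a summed count of at least 10 (22672) were tested with edgeR 4.0.16 (R 4.3.3; TMM scaling, quasi-likelihood fit of all 3 groups, Benjamini-Hochberg over all genes tested), called at FDR below 0.05 and fold above 1.5; SE is the absolute log2 fold change divided by the root of F. CPM used TMM-scaled library sizes (factors 0.9007 to 1.065). Sense partners were the coding genes whose symbol remained after removing -AS and the number. Positions came from GENCODE 29, of the same build, and promoter sequences from RefSeq (GRCh38.p14). The pipeline was tested on simulated data of 15676 genes: for 1% against 20% O2, 96% of 4-fold and 76% of 2-fold changes were recovered, with 2.825% of calls false. For 32-134D against vehicle these were 98%, 80% and 4.813%. Only 200 genes were changed in each simulation, whereas 4412 genes were called higher and 4595 lower at 1% O2 in the data. The simulated shares of recovered changes and false calls therefore need not hold for the calls reported here.

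Named genes were the 5 highest and 5 lowest called members without overlap in each of the first 2 comparisons, up to 3 each way in the third, up to 6 opposite pairs in each of the first 2, the members of a published list, and the 3 RNAs on either side of the count limit; a few others are marked where they appear, and some items that the rule names are not reported here. Members of a second list, antisense RNAs of HIF targets, are counted with the closing observations. Members, lists and rules were chosen with earlier results of these data known. Alternatives were DESeq2, other scalings and filters, other thresholds, thinned counts, fits without 1 library and a replicate block. No 2 libraries of a group agreed within sampling noise. The authors' own comparison results were not used.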

Additional observations from a re-analysis of the deposited data

How the results depend on the processing

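The lowest count of 175 of the 196 fell in the smallest library, which alone kept 65 further antisense RNAs out, and strand setting, cell passage and the compound's dose were not varied. More RNAs were lower than higher at 1% O2, and more were higher than lower with 32-134D, in every alternative run. Without the limit in each library, the shares lower at 1% O2 and higher with 32-134D came close to those of all genes tested. The sizes of the counts depended most on the fold threshold and the count limit. In all, 165 of the 210 recomputed counts stayed within 1.5 times the reported one, and of the recomputed fold changes of named genes and their partners none that was called turned sign, 85 lost the call and 92 gained one. For the rest the cause was not tested beyond what the alternative itself changes.

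With no fold threshold, 23 lower antisense RNAs with 32-134D became 35, pairs in the same direction became 42 at 1% O2 and 31 with 32-134D, opposite pairs became 33 and 27, and 2 RNAs were lower against vehicle at 20% O2. With a fold above 2, the antisense RNAs were 11 higher and 47 lower at 1% O2, 34 higher and 8 lower with 32-134D and 1 higher against vehicle at 20% O2, with 10 and 7 pairs in the same direction and 2 and 0 opposite. With at least 20 counts in each library, 15 were higher at 1% O2 and 11 lower with 32-134D, with 15 and 10 pairs in the same direction and 8 and 2 opposite. With a summed count of 10 in place of 10 in each library, 72 were higher and 147 lower at 1% O2, 109 higher and 64 lower with 32-134D and 8 higher against vehicle at 20% O2, with 71 and 54 pairs in the same direction and 31 and 11 opposite. Of those 668 RNAs 22% were lower and 10.8% higher at 1% O2, against 20.3% and 19.5% of all genes tested. With 32-134D 16.3% were higher and 9.58% lower, against 16.2% and 13.7% of all genes tested.

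Scaling by total library size gave 15 lower with 32-134D and 9 opposite pairs, and of all calls 34.5% were higher at 1% O2 against 49% with TMM, and 72% against 54.2% with 32-134D. Requiring 10 counts in every library tested gave 8 opposite pairs with 32-134D, and thinning every library to the smallest gave 11 pairs in the same direction. The count of RNAs lower with 32-134D than in vehicle at 20% O2, which was 0, was 2 with DESeq2, 4 when genes with any count were tested and 1 after thinning, and ran from 0 to 1 when 1 library was left out. Leaving out 1 library moved the opposite pairs with 32-134D between 3 and 7, the latter without vehicle at 1% O2 replicate 1 or 32-134D replicate 2.

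Same-numbered replicates did not deviate together (correlations from -0.0322 to 0.00525), so no pairing by number was seen. Such correlations cannot exclude that libraries of the same number shared a passage or day. With a replicate block 25 RNAs were higher and 83 lower at 1% O2, 59 higher and 24 lower with 32-134D, and 3 lower against vehicle at 20% O2.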

Other observations

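Antisense RNAs facing the HIF targets and oxygen-sensing genes of one list lay outside the count limit. HIF targets that are not on that list were not counted. Of the 71 genes on the list, none faced one of the 196. Another 8 faced an antisense RNA with fewer than 10 counts in some library but enough to be tested. Of these 8, 4 were higher at 1% O2 and the other 4 were not called. Of all genes tested 19.5% were higher there, and of all 668 antisense genes tested 10.8%. With 32-134D 4 of the 8 were lower and 1 was higher. In that comparison 13.7% of all genes tested were lower and 16.2% higher, and of the 668 antisense genes 9.58% and 16.3%. Some of the 8, such as BHLHE40-AS1, reached the summed count for testing mainly through the libraries at 1% O2 where they were high, so these counts are a description; others, such as ENO1-AS1 and HIF1A-AS1, had under 10 counts in every library. This list was drawn up with earlier results of these data known.

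DDIT4-AS1 faces DDIT4, a stress-induced brake on mTORC1. It had 2, 1 and 11 counts in vehicle at 20% O2, 151, 98 and 156 in vehicle at 1% O2, and 28, 25 and 23 with 32-134D. Vehicle at 1% O2 stood above all other libraries, with a log2 fold change of 4.16 (edgeR FDR = 3.37e-08), and DDIT4 itself changed by 4.13. With 32-134D the log2 fold changes were -2.39 (edgeR FDR = 7.81e-07) and -2.17. In GENCODE 29 the exons of DDIT4-AS1 lie wholly inside those of DDIT4, and its read density was 1.19% of that of DDIT4. How much of its counts came from the wrong strand was not measured.

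BHLHE40-AS1, beside a hypoxia-induced clock repressor, had 2, 1 and 5 counts, then 56, 42 and 57, then 19, 11 and 14, a log2 fold change of 3.54 (edgeR FDR = 1.95e-06) at 1% O2 and -1.81 (edgeR FDR = 7.04e-05) with 32-134D; BHLHE40 changed by 3.50 and -2.12. VLDLR-AS1, beside a lipoprotein receptor gene, had 5, 0 and 12 counts, then 151, 73 and 86, then 34, 34 and 66, a log2 fold change of 3.46 (edgeR FDR = 3.33e-05) and -1.09 (edgeR FDR = 0.0197). LOXL1-AS1 had 10, 5 and 23 counts, then 75, 28 and 38, then 32, 22 and 13, and its log2 fold change was 1.11 (edgeR FDR = 0.00559) while LOXL1, a lysyl oxidase, changed by 0.14 and was not called. RORA-AS1, the 1 that was higher with 32-134D, had 5, 6 and 6 counts there and 3, 0 and 1 in vehicle at 1% O2.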
